A study of Mus musculus with 2 samples.

Results

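Serpins are a family of proteins, most of them inhibitors of serine proteases, whose mouse genes are named Serpin with a clade letter and a number. The members described here are the genes whose symbol on the array begins with Serpin followed by such a letter and number, among probes that are not controls. The rule found 62 genes on 79 probes, of 29875 genes on 39429 probes in all, and used no measured value. Each probe was printed in 4 spots, and a probe was kept if the scanner software called 2 or more of them well above background in the same genotype's channel on both arrays. By that rule 31 of the 62 Serpin genes were measured.

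An inhibitory serpin is a suicide substrate. It offers an exposed reactive centre loop as bait, and once the protease cuts the loop, the serpin folds over and traps the enzyme in a covalent complex. Clade A holds blood plasma proteins made mainly by the liver, with large groups of near-identical copies in the mouse, and clade B holds intracellular members without a signal peptide. Several members do not inhibit proteases at all and act as hormone carriers or as a chaperone for collagen. Smad4 is the shared partner through which TGF-beta and BMP signals reach their target genes.

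The samples were whole ureters dissected from NMRI mouse embryos at E14.5, which hold mesenchyme as well as epithelium. The knockout, Smad4cKO (UE), carries Pax-cre/+;Smad4(fl/fl) in the sample labels and Pax2-cre/+ in the series title, and Pax2-cre is known for its activity in the nephric duct and the ureteric epithelium that grows from it. The control is Smad4(fl/?), so its second Smad4 allele is not given and no cre is named for it. Each of 2 arrays held 1 knockout and 1 control RNA in different dyes: on replicate 1, labelled female, the knockout was in Cy3, and on replicate 2, labelled male, it was in Cy5. How many embryos gave each RNA is not stated in the sources used here. Sex, dye and replicate change together between the arrays and cannot be told apart.

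Smad4 itself read -0.58 on replicate 1 and -0.08 on replicate 2 as a log2 ratio of labelled knockout over labelled control (mean -0.33, SD 0.36, n = 2 arrays; limma adjusted p = 1.00). Every direction given here follows the dyes in the labels, and the authors' deposited table, read in the order of its titles, runs the opposite way. Over all genes, 66 of 20104 passed limma's test at an adjusted p of 0.05, 46 higher in the labelled knockout and 20 higher in the labelled control. A share of 69.1% and 67.6% of all probes was well above background in knockout and control on replicate 1, and 66.5% and 68.6% on replicate 2. Precision is limited by how few arrays there are. Limma's p-values set each mean against a variance drawn mostly from all genes tested (prior degrees of freedom 9.21, residual 1). Only the spread between these 2 arrays enters that variance. In bulk tissue, fewer cells of a type and less RNA per cell cannot be told apart.

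Probe sequences are shown first, 5′ to 3′. Serpinb5 passed the test and is read by 1 probe, of which the first 30 of 60 bases are given. The array design places it at chr1:108778585-108778644 (mm9, plus strand).
Serpinb5: ccaagtctcagggaacttgtctgtagtcgc

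Serpina1a and Serpina1e are near-identical antitrypsin genes with 2 probes each, and those given here lie over the stretch that codes for the reactive centre loop. They are the dimmer probe of each gene, and the gene's reported ratio comes from the other. Their longest shared stretch, 17 bases in capitals, begins within the codon of the bait residue and runs on past the site where the protease cuts, and the letters before it differ between the copies. In mm9 the probes lie on the minus strand at chr12:105091979-105092038 for Serpina1a and chr12:105185290-105185349 for Serpina1e.
Serpina1a: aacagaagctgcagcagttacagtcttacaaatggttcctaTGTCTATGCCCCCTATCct
Serpina1e: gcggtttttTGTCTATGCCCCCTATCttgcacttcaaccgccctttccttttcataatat

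Probes of Serpinb6a and Serpinb6c show how closely some copies resemble each other. The first 30 of 60 bases of each are given, with the 26 bases they share in capitals. The Serpinb6c probe given is its dimmer one, and the brighter one, which gives the reported ratio, also shares 26 bases with that of Serpinb6a.
Serpinb6a: AAGTGACCTTATCCATAAGTGCAATGgcaa
Serpinb6c: cAAGTGACCTTATCCATAAGTGCAATGaca

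The Serpinb8 probe is shown because its letters are unusual for this array. Bases 15 to 44 are given with the GT repeats in capitals, and the whole probe holds 19 GT dinucleotides where the median over genes tested is 3.
Serpinb8: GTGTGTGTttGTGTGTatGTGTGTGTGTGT

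In clade A 13 of 25 genes were kept and in clade B 10 of 27, whereas Serpinc1, the genes of clades E and F, Serping1 and Serpinh1 were all kept. Serpini1 was kept and Serpini2 was not, and the clade D gene Serpind1 was not. That makes 31 of 62, where the filter kept 67.3% of all genes on the array. All 31 were also well above background in each of the 4 channels, so none entered through 1 genotype alone. Of the other 31 genes, 26 were well above background in no channel and 5 in at least 1. On clade A's main cluster, on chromosome 12, 13 of 24 genes were kept. The clade B genes lie in a cluster on chromosome 1, with 3 of 12 kept, and another on chromosome 13, with 7 of 15 kept.

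The undetected genes include the keratinocyte and squamous members Serpinb3a, Serpinb3d, Serpinb7, Serpinb12 and Serpinb13, the thyroxine carrier Serpina7 on chromosome X, the vaspin gene Serpina12 and the protein C inhibitor gene Serpina5. None of their probes had a spot well above background in any channel. They were not detectable on these arrays, which is no measurement of absence. Copies of the Serpinb9 group were likewise not kept apart from Serpinb9 itself.

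**Figure D1:**
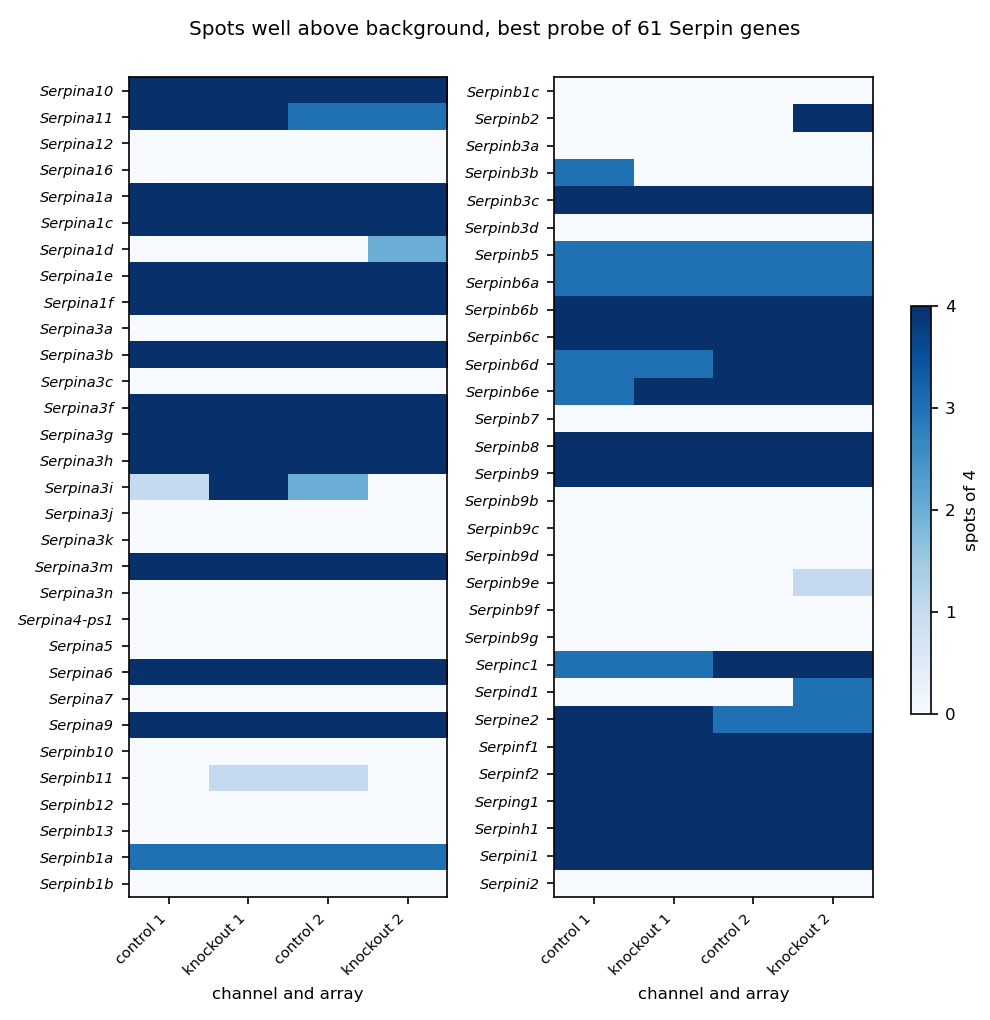
Spots well above background for the best probe of each of 61 Serpin genes (rows) in the control and knockout channels of replicates 1 and 2 (columns). Colour gives the number of spots from 0 to 4, outlier spots left out; Serpinb2 and Serpind1 are dark only in the knockout channel of replicate 2.

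A few genes just below the filter differed between channels. Serpinb2, which encodes plasminogen activator inhibitor 2, had 4 spots well above background in the knockout of replicate 2 and 0 in the other 3 channels. Serpind1, which encodes the thrombin inhibitor heparin cofactor II, had 3 spots in the knockout of replicate 2 and 0 elsewhere. The second probe of Serpina6 had 4 spots in that channel, 1 in each channel of replicate 1 and 0 in the control of replicate 2. Each of these 3 probes was thus detected in the knockout of replicate 2. The control was not well above background on either array, and the knockout was on 1 of 2. Averaged over both arrays, the knockout was 1.08-fold, 1.16-fold and 1.20-fold above the control. The control was set no lower than the dimmest signals called above background. These values are no lower bounds, since the knockout was not detected on replicate 1. There the log2 ratios were -0.01, 0.05 and -0.06. Over all 41 probes that were not kept the single-array log2 ratios, mostly of undetected channels, ran from -0.23 to 0.69. Serpina3i, Serpina1d and Serpinb3b were the other genes with a detected channel, and they did not all share the knockout of replicate 2. Serpina3i had 4 spots in the knockout of replicate 1, 2 in the control of replicate 2 and 0 in the knockout of replicate 2. Serpina1d had 2 spots in the knockout of replicate 2 and 0 elsewhere. Serpinb3b, of the squamous cell carcinoma antigen group, had its 3 spots in the control of replicate 1.

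Of the 31 measured genes 1 passed the test, Serpinb5, where 0.328% of all genes tested passed in either direction and 0.229% passed as higher in the labelled knockout. At an unadjusted p under 0.05 there were 6, namely Serpinb5, Serpina1a, Serpina1c, Serpina1e, Serpinb6b and Serpinf2, where 4.55% of all genes were. The log2 ratios of 17 genes were above 0 on both arrays, where 21.7% of all genes tested were. Only 3, Serpina1f, Serpina9 and Serpinh1, were below 0 on both, where 24.6% of all genes were. The other 11 had opposite signs on the arrays, where 53.7% of all genes did. The median of the 31 mean ratios was 0.10, with 0.11 on replicate 1 and 0.08 on replicate 2, beside -0.0044 over all genes tested. Mean ratios ran from -0.14 for Serpina3m to 1.16 for Serpinb5. Neighbouring copies share probe sequence, so these genes are not independent of each other.

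**Figure D2:**
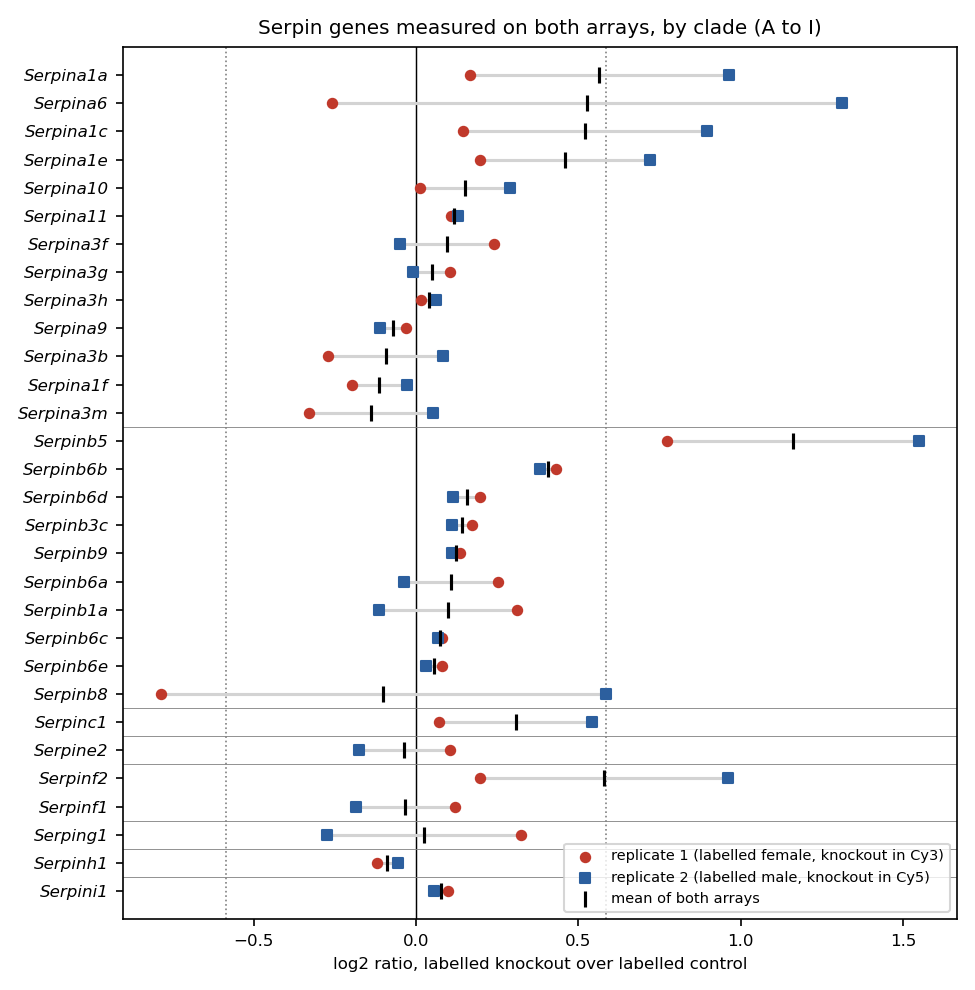
Log2 ratios of labelled knockout over labelled control (horizontal axis) for 30 measured Serpin genes (rows), grouped by clade. Circles are replicate 1, squares replicate 2, vertical ticks the mean of both, and dotted lines 1.5-fold; Serpinb5 is the gene with both arrays beyond 1.5-fold on the same side.

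Serpinb5 encodes maspin, a clade B member of epithelial cells that does not act as a protease inhibitor. Its log2 intensity was 8.40 in the knockout and 7.62 in the control of replicate 1, and 8.60 in the knockout and 7.05 in the control of replicate 2. Both knockout channels were above both control channels, with no overlap. The log2 ratios were 0.77 and 1.55, a mean of 1.16 (SD 0.55, n = 2) or 2.24-fold, and limma's adjusted p was 0.0211. Serpinb5 was also the 1 Serpin gene at least 1.5-fold higher in the labelled knockout on each array, where 0.264% of all genes were (0.368% in either direction). The mean was 1.82 with Agilent's processed signals, and in that setting limma's adjusted p was 6.43e-05. It was 1.83 in the authors' deposited table turned to knockout over control. The call was lost with median centring in place of loess (limma adjusted p = 1.00), without the filter (0.826) and with unpaired channels (0.0912), and no gene on the array passed in the first and second of these.

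Urothelium and general epithelium markers had mean ratios above 0, as Serpinb5 did, while basal and squamous markers were mixed. Of 12 urothelium markers measured 7 passed the test, all higher in the labelled knockout, where 0.229% of all genes tested passed that way. The list median was 0.83, and mean ratios ranged from 0.10 to 1.55. All 10 general epithelium markers were above 0 on both arrays, where 21.7% of all genes tested were (median 0.26, range 0.06 to 0.33), and none passed. Of 12 measured basal and squamous markers 1 passed, Sfn, with log2 ratios of 0.67 and 0.85, beside the same 0.229% of all genes. The list median was 0.06 (range -0.41 to 0.76). The summed linear intensity of the urothelium list was 101819 in the knockout and 72297 in the control of replicate 1, and 85325 and 61189 on replicate 2. That of the basal and squamous list was 15611 in the knockout and 17263 in the control of replicate 1, and 16769 and 14126 on replicate 2. Dsc3, Dsg3 and Sprr2d of the basal list and Psca of the urothelium list were not kept. The part of these markers in the Serpinb5 result was not tested.

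The RefSeq promoter table (GRCm38.p6) holds 51 of the 62 Serpin genes. The 250 bases before the start of Serpinb5, the gene that passed, lie at chr1:106860925-106861174 on the plus strand and are given with SMAD-type motifs in capitals. The motifs searched on both strands were GTCT, CAGAC (whose last letters are GTCT on the other strand, so it overlaps a GTCT match), the palindrome GTCTAGAC, the GC-rich GGCGCC and the TATA motif TATAAA.
Serpinb5 promoter: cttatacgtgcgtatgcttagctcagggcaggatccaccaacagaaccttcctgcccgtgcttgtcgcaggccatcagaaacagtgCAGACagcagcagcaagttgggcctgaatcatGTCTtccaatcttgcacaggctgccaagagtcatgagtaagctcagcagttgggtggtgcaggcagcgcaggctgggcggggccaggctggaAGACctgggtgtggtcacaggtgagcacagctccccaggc

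This stretch holds 3 GTCT matches, 1 of them within its single CAGAC, and 0 matches of the other motifs. Of all promoters in the RefSeq set, 82.9% hold GTCT, 42.2% CAGAC, 0.2% GTCTAGAC, 9.6% GGCGCC and 12.4% TATAAA in the same window. Of 63 Serpin promoters, some genes having several, 95.2% hold GTCT, 46.0% CAGAC, 0.0% GTCTAGAC, 3.2% GGCGCC and 27.0% TATAAA. A match of so few letters is a description of the sequence and not a binding site.

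Among the other clade B genes, the copies of the Serpinb6 group, whose human counterpart inhibits cathepsin G, mostly read slightly above 0. Serpinb6b had log2 intensities of 9.25 in the knockout and 8.82 in the control of replicate 1, and 9.37 and 8.99 on replicate 2. Both knockout channels were again above both control channels. Its log2 ratios of 0.43 and 0.38 differed by less between the arrays than those of Serpinb5 (mean 0.41, SD 0.04, n = 2), yet limma's adjusted p was 0.470. Serpinb6d read 0.20 and 0.11, and Serpinb6c 0.08 and 0.07. Serpinb6a read 0.25 and -0.04, and Serpinb6e 0.08 and 0.03. Of these 5 copies, 4 were above 0 on both arrays, where 21.7% of all genes tested were, and Serpinb6a was not. The shared letters of the Serpinb6a and Serpinb6c probes leave it uncertain which copy a signal comes from, and Serpinb6c and Serpinb6e share 21 bases. A second kept probe of Serpinb6c read 0.22 and 0.01.

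The leukocyte elastase inhibitor gene Serpinb1a read 0.31 on replicate 1 and -0.11 on replicate 2. Serpinb9, the inhibitor of granzyme B, read 0.13 and 0.11. Serpinb3c, of the squamous cell carcinoma antigen group, read 0.17 and 0.11. None of these 3 passed limma's test (each adjusted p = 1.00). The spread of Serpinb1a across the arrays was larger than its mean of 0.10, while Serpinb9 and Serpinb3c kept 1 sign.

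Serpinb8, a clade B inhibitor of the proprotein convertase furin, gave the widest split within clade B. Its log2 intensity was 11.91 in the knockout and 12.70 in the control of replicate 1, and 12.79 in the knockout and 12.21 in the control of replicate 2. The channel in Cy5 was the brighter one on each array, whichever genotype it held. The ratios of knockout over control were -0.79 and 0.58 (mean -0.10, SD 0.97, n = 2; limma adjusted p = 1.00). As Cy5 over Cy3 they were 0.79 and 0.58, and Serpinb8 was the 1 Serpin gene at least 1.4-fold brighter in Cy5 on both arrays, where 0.353% of all genes were.

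Dye ratio went with the GT content of the probe over the whole array. The 102 genes whose probe holds at least 12 GT dinucleotides were brighter in Cy5 on both arrays in 102 of 102 cases, against 27.1% of all genes tested. Their median Cy5 over Cy3 was 0.69 on replicate 1 and 0.45 on replicate 2, and 39 of them passed 1.4-fold on both arrays. Among genes with 2 to 3 GT the medians were -0.02 and -0.02. The part of the probe's letters in the Serpinb8 values was not tested.

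**Figure D3:**
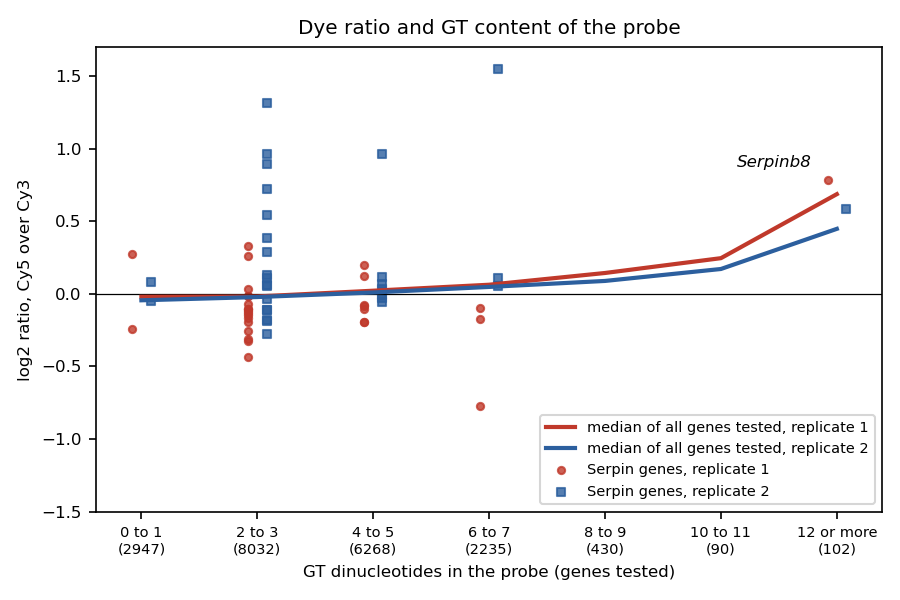
Log2 ratio of Cy5 over Cy3 (vertical axis) against the number of GT dinucleotides in the probe, in classes with the number of genes tested in parentheses. Lines are medians over all genes on each array and points are 30 Serpin genes; Serpinb8, at 0.79 and 0.58, is the Serpin gene in the class of 12 or more, where the medians are 0.69 and 0.45.

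In clade A the antitrypsin genes and Serpina6 had their high knockout values on replicate 2. The antitrypsin genes Serpina1a, Serpina1c and Serpina1e read 0.96, 0.90 and 0.72 on that array and 0.17, 0.14 and 0.20 on replicate 1. Serpina1a had log2 intensities of 7.90 in the knockout and 7.74 in the control of replicate 1, and 8.63 and 7.67 on replicate 2. Both knockout channels were above both control channels, with the narrower gap on replicate 1. Means were 0.56 for Serpina1a (SD 0.56; limma adjusted p = 0.533), 0.52 for Serpina1c (SD 0.53; 0.636) and 0.46 for Serpina1e (SD 0.37; 0.590), each with n = 2. Serpina1a passed with Agilent's processed signals, where its mean was 0.84 and limma's adjusted p 0.0476, and where 0.965% of all genes passed. Serpina1e passed with the authors' deposited values, at 0.79 and an adjusted p of 0.0384 from limma, where 0.95% of all genes passed.

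These 3 genes are hardly separate measurements. Probes of Serpina1a and Serpina1c share 47 bases, and each shares 29 with the Serpina1e probe. The array design itself lists other Serpin genes for 4 probes, among them that of Serpina1c. The probes over the loop read less. That of Serpina1e gave -0.0027 on replicate 1 and 0.14 on replicate 2, with all 4 spots above background in each channel, against 0.20 and 0.72 for its other probe. That of Serpina1a was well above background in both knockout channels, with 3 and 4 spots, and in neither control channel, with 0 and 1. Its mean log2 intensities were 6.84 and 7.19 in the knockouts and 6.72 and 6.73 in the controls. Averaged over both arrays, the knockouts were 1.22-fold brighter, with log2 ratios of 0.12 on replicate 1 and 0.46 on replicate 2. The controls' own signal was not below the dimmest signals called above background. The value is thus the observed mean and no lower bound.

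Serpina6 encodes corticosteroid-binding globulin, a carrier of glucocorticoids in blood that does not inhibit proteases. Its log2 intensity was 7.84 in the knockout and 8.10 in the control of replicate 1, and 8.998 in the knockout and 7.69 in the control of replicate 2. The knockout was the lower channel on replicate 1 and the higher one on replicate 2, so the groups overlapped. The ratios were -0.26 and 1.31 (mean 0.53, SD 1.11, n = 2; limma adjusted p = 1.00).

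The remaining clade A genes were within 1.5-fold on each array. Serpina10, which encodes the protein Z-dependent inhibitor of factor Xa, read 0.01 and 0.29. Serpina11 read 0.11 and 0.13 on its brighter probe and -0.15 and 0.15 on the other, so its probes disagreed in sign on replicate 1. Serpina1f read -0.20 and -0.03, and Serpina9, known from germinal centre B cells, read -0.03 and -0.11. In the antichymotrypsin group Serpina3b read -0.27 and 0.08, and Serpina3m -0.33 and 0.05. Serpina3f read 0.24 and -0.05, Serpina3g 0.11 and -0.01, and Serpina3h 0.02 and 0.06. The array design also lists Serpina3h for this Serpina3f probe. In mm9 it lies at chr12:105492556-105492615, beside the Serpina3h probe at chr12:105491733-105491792. The other Serpina3f probe, at chr12:105458989-105459048, was not kept. Which of these copies gave the Serpina3f values is therefore uncertain. No gene of that group was past 1.5-fold on an array, and 4 of its 5 measured members changed sign between the arrays, as 53.7% of all genes did. Agt, which encodes angiotensinogen and is a clade A member without a Serpin symbol, read -0.05 and 0.09.

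Outside clade A, the plasma serpin genes Serpinf2 and Serpinc1 also read higher on replicate 2. Serpinf2 encodes alpha-2-antiplasmin, the main plasma inhibitor of plasmin. Its log2 intensity was 7.41 in the knockout and 7.22 in the control of replicate 1, and 7.99 and 7.03 on replicate 2. Knockout channels were above control channels on both arrays. The ratios were 0.20 and 0.96 (mean 0.58, SD 0.54, n = 2), or 1.49-fold, and limma's adjusted p was 0.460. Serpinf2 passed with Agilent's processed signals (mean 1.08; limma adjusted p = 0.0092), with the authors' deposited values (1.04; 0.00767) and with an intensity trend in the variance prior (0.58; 0.0165), where 0.776% of all genes passed. Serpinc1, which encodes antithrombin, the inhibitor of thrombin and factor Xa, read 0.07 and 0.54 (mean 0.31, SD 0.33; limma adjusted p = 1.00).

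On replicate 2 alone 6 measured Serpin genes were at least 1.5-fold higher in the labelled knockout, where 0.92% of all genes were. They were Serpina1a, Serpina1c, Serpina1e, Serpina6, Serpinf2 and Serpinb5. On replicate 1 alone it was 1, Serpinb5, where 0.627% of all genes were. Between the arrays the 5 plasma serpins among the 6 thus read from 0.72 to 1.31 on replicate 2 and from -0.26 to 0.20 on replicate 1. Of 13 liver hepatoblast markers measured, 5 were past 1.5-fold higher in the labelled knockout on replicate 2 and 2 on replicate 1, and the list median was 0.49 on replicate 2 and 0.15 on replicate 1. Neuron and glia markers split further, with a median of 0.63 on replicate 2 and -0.45 on replicate 1, and with 7 of 11 measured past 1.5-fold higher on replicate 2 and 0 on replicate 1.

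Alb, which encodes albumin, read -0.09 on replicate 1 and 1.61 on replicate 2. Ahsg read 0.02 and 1.03, and Fgb 0.17 and 0.89. These 3 followed the order of the plasma serpins, with the higher value on replicate 2. Not all of the 13 markers did. Afp, Ttr, Apob (0.29 and 0.27) and Rbp4 (0.23 and 0.06) had the higher value on replicate 1, and the remaining markers on replicate 2. Afp, which encodes alpha-fetoprotein, was high on both, at 1.59 and 1.04, and was the 1 marker of the list that passed (limma adjusted p = 0.00447). Ttr, the transthyretin gene, read 0.70 and 0.68 (limma adjusted p = 0.0502). The summed linear intensity of the 13 markers was 22858 in the knockout and 15173 in the control of replicate 2. On replicate 1 the control sum was 11280 and the knockout sum was also higher. Apoa1, Apoa4 and Apoh were not kept, and single-array ratios of the 13 ran from -0.19 to 1.61. The part of the liver and of the neuron and glia markers in the plasma serpin values was not tested.

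**Figure D4:**
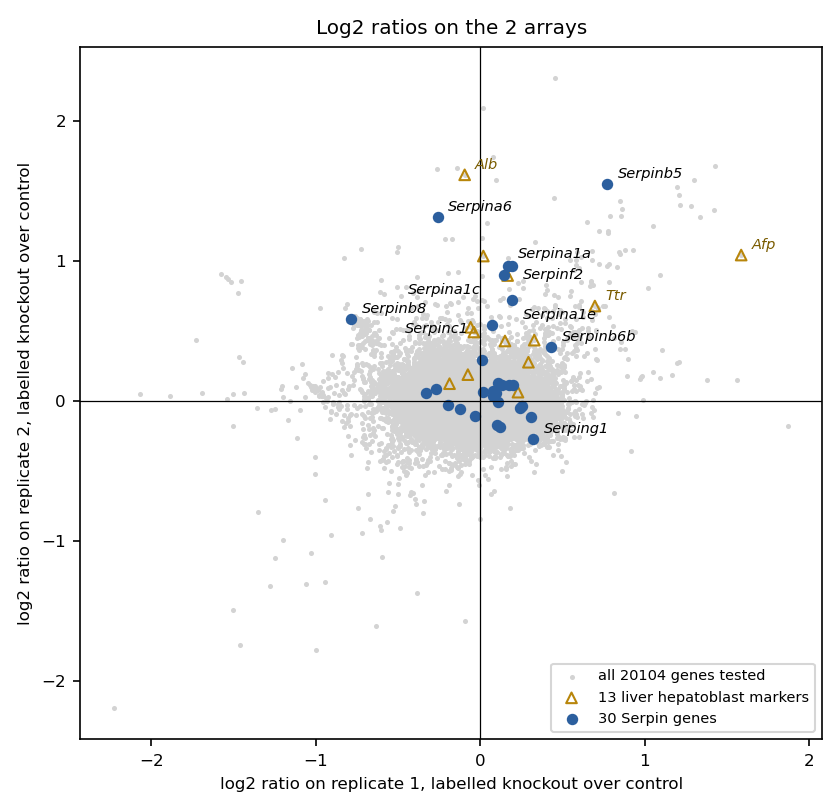
Log2 ratio of labelled knockout over labelled control on replicate 1 (horizontal) and replicate 2 (vertical) for all 20104 genes tested (grey), 30 Serpin genes (filled) and 13 liver hepatoblast markers (triangles). Serpina1a, Serpina1c, Serpina1e, Serpina6 and Serpinf2 sit near 0 on replicate 1 and at 0.72 to 1.31 on replicate 2, as Alb does at -0.09 and 1.61; Serpinb5 and Afp are high on both.

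The other secreted serpins of clades E to I differed by less than 1.5-fold on each array. Serpine2, which encodes the thrombin and urokinase inhibitor protease nexin 1, read 0.10 and -0.18. Serpinf1, the gene of pigment epithelium-derived factor, an extracellular protein that does not inhibit proteases, read 0.12 and -0.19 on its brighter probe and 0.04 and -0.21 on the other. Both Serpine2 and Serpinf1 changed sign between the arrays.

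Serping1, which encodes the C1 inhibitor of the complement system, read 0.32 on replicate 1 and -0.27 on replicate 2. Its log2 intensity was 13.57 in the knockout and 13.25 in the control of replicate 1, and 13.27 and 13.54 on replicate 2. The channel in Cy3 was thus the brighter one on each array. A second probe read 0.26 and -0.09, the same signs. Serpini1, which encodes neuroserpin, the inhibitor of tissue plasminogen activator in neurons, read 0.10 and 0.05 on its brighter probe and 0.31 and -0.03 on the other. Its 2 probes differed in sign on replicate 2.

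**Figure D5:**
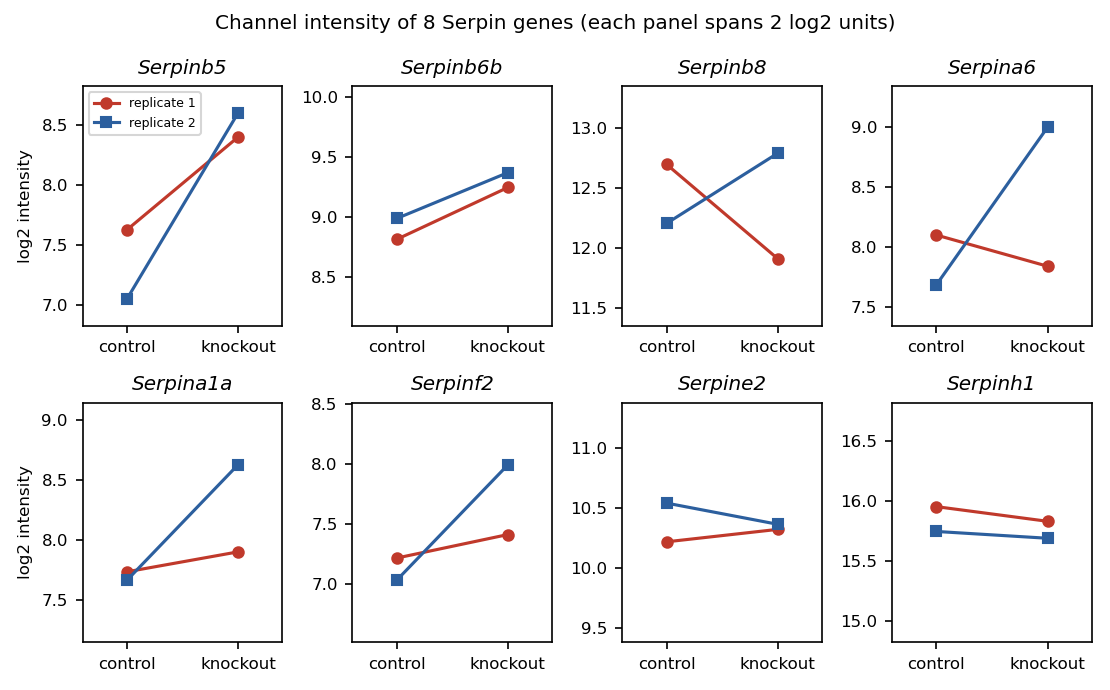
Log2 intensity after normalisation (vertical axis) of 8 Serpin genes in the control and knockout channels, replicate 1 as circles and replicate 2 as squares, each line joining the channels of 1 array and each panel spanning 2 log2 units. Serpinb5 and Serpinb6b slope upward on both arrays, Serpinb8 and Serpina6 slope opposite ways, and Serpine2 and Serpinh1 are nearly flat.

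Serpinh1 encodes HSP47, the collagen chaperone of the endoplasmic reticulum. Its log2 intensity was 15.83 in the knockout and 15.95 in the control of replicate 1, and 15.69 and 15.75 on replicate 2. The ratios of -0.12 and -0.06 (mean -0.09, SD 0.05, n = 2; limma adjusted p = 1.00) were of 1 sign, although the control of replicate 2 was dimmer than the knockout of replicate 1. All 20 of its listed collagen folding partners on the array were measured, and 0 passed limma's test, with 3 at an unadjusted p under 0.05, Col1a1, Col5a1 and Fkbp10 (4.55% of all genes). Of the 20, 9 were below 0 on both arrays, where 24.6% of all genes were, and 1 was above, where 21.7% were. The list median was -0.09, the mean ratio of Serpinh1 -0.09 and the median over all genes -0.0044. The collagen gene Col1a1 read -0.61 and -0.35, Col5a1 -0.42 and -0.28, and Fkbp10, a collagen prolyl isomerase, -0.38 and -0.18. Col1a2 read -0.91 on replicate 1 and 0.10 on replicate 2. Fibroblast matrix markers, which share collagen genes with this list, had a median of -0.28 over 10 genes, 6 of them below 0 on both arrays (24.6% of all genes).

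The proteases and cofactors that serpins act on were examined as lists. In plasminogen activation and coagulation, 19 of 23 listed genes were measured and 0 passed limma's test, where 0.328% of all genes tested passed. An unadjusted p under 0.05 was found for 2 of the list, F10 and F2, where 4.55% of all genes had one. The median was 0.02. F10, the gene of coagulation factor X, read 0.17 and 1.02, and F2, the prothrombin gene, read 0.11 and 0.61. Neither Vtn, the vitronectin gene, nor Klkb1, the plasma kallikrein gene, was well above background in all 4 channels. Both F10 and F2 read higher on replicate 2. They passed with Agilent's processed signals (limma adjusted p = 0.0152 and 0.00997), where 0.965% of all genes passed. Lrp2, an endocytic receptor, read -0.49 and -0.09. Proc, the protein C gene, read -0.18 and -0.34, and F7, another coagulation factor gene, read -0.12 and 0.05. The plasminogen activator genes Plau and Plat read 0.05 and 0.22, and 0.13 and -0.05, and the urokinase receptor gene Plaur 0.05 and 0.08. The plasminogen gene Plg was not kept.

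Among other proteases that serpins inhibit, 25 of 34 on the array were measured, 0 passed limma's test and 0 had an unadjusted p under 0.05. Of all genes tested, 0.328% passed and 4.55% had such a p. The median was 0.03. Tmprss2, a membrane serine protease of epithelia, read 0.45 and 0.10, Casp8 0.39 and 0.11, and the kallikrein gene Klk8 0.34 and 0.11. Furin, the protease that Serpinb8 inhibits, read -0.40 and -0.04. Granzyme, chymase and several kallikrein genes were among those not kept, so Serpinb9 was measured while Gzmb was not.

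Protease inhibitors outside the family formed a further list. Of 26 on the array 22 were measured, 0 passed limma's test, and 3 had an unadjusted p under 0.05, Itih2, Slpi and Timp2. Of all genes tested, 0.328% passed and 4.55% had such a p. The median was 0.06, with 11 above 0 and 6 below 0 on both arrays, beside 21.7% and 24.6% of all genes. Slpi, the secretory leukocyte protease inhibitor of mucosal epithelia, read 0.17 and 0.80, and Itih2, a plasma inhibitor chain that binds hyaluronan, read 0.42 and 0.38. Wfdc2, an epithelial secreted protein, read 0.29 and 0.21. The metalloproteinase inhibitor gene Timp2 read -0.64 and -0.07.

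Genes that lie beside the Serpinb clusters gave no passing member either. Of 13 on the array 12 were measured, 0 passed limma's test, and 1 had an unadjusted p under 0.05, Bcl2, at -0.41 and -0.17. Of all genes tested, 0.328% passed and 4.55% had such a p. The median was -0.05, and mean ratios ran from -0.29 to 0.11. Gmds read -0.11 and -0.18, Zcchc2 -0.07 and -0.21, and Ripk1 0.18 and 0.03. The list pools genes beside the clusters of chromosomes 1 and 13, while Serpinb5 lies on chromosome 1. Serpinb5 at 1.16, the highest mean ratio of the Serpin genes, lay outside the range of this list. Its difference from the listed genes was not tested.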

How the data were processed

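Two-colour Agilent arrays were read from the deposited scanner files, made with Agilent Feature Extraction 10.7.3.1 per the submitters' processing notes. Per the file headers, these hold linear intensity per spot and channel, processed signals, a log10 ratio of red over green and flags. The authors' deposited table holds a signed fold score per probe, with 1 at its median, whose turned values correlated with the ratios here at 0.904 and 0.873 across probes. Its values were used as 1 of the alternatives, and Agilent's log10 ratio was not used.

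Mean and background intensity were corrected with normexp (offset 50), and arrays normalised by loess in limma 3.58.1 under R 4.3.3, with control spots at weight 0. Outlier spots (3.52% and 3.66%) were left out, no spot was saturated, and the 4 spots of a probe were averaged. Each gene took its brightest kept probe. Replicate 1 was turned in sign, and limma's moderated test (lmFit and eBayes) set the 2 ratios against 0, with 1 residual degree of freedom and Benjamini-Hochberg adjustment over 20104 genes. Levels of single channels are log2 intensity after loess and Aquantile. Symbols were updated through accessions or symbols, and all 79 Serpin probes kept their name. By the naming rule every measured Serpin gene is given except 1, which enters the counts and medians but is not reported or plotted here, and in each list the 4 members whose mean ratio lies farthest from 0. Defining markers of liver are named too, while Plau, Plat, Plaur, Proc, F7 and Klkb1 were chosen after their values were seen. Members and lists were chosen with earlier results of these data known. Alternatives changed the background correction, offset, normalisation, filter, probe rule, source of values, prior, pairing and replicates. The fit was tested on simulated data.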

Additional observations from a re-analysis of the deposited data

Results flagged for a closer look

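In 3 of the 31 measured Serpin genes the arrays labelled female and male moved in opposite directions, each by at least 0.25 on the log2 scale. The share of all genes that did so by that size is not given here, so the count cannot be set against it. Opposite signs of any size were found in 53.7% of all genes tested. Serpina6 read -0.26 on the array labelled female and 1.31 on the array labelled male. For Serpinb8 the values were -0.786 and 0.585. Serping1 read 0.324 and -0.275. The difference between the arrays was not tested in any of them, since each sex is 1 array and its dye order changed with it.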

How the results depend on the processing

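The count of Serpin genes that passed, 1 as reported, was 3 with Agilent's processed signals (Serpinb5, Serpina1a, Serpinf2), 3 with the authors' deposited values (Serpinb5, Serpina1e, Serpinf2), 2 with an intensity trend in the prior (Serpinb5, Serpinf2), and 0 with median centring, without the filter and with unpaired channels. The count of Serpin genes at least 1.5-fold on each array, 1 as reported, ran from 2 to 6 when 1 replicate was left out. It was 6 without replicate 1, all higher in the labelled knockout, and 2 without replicate 2, with Serpinb5 higher and Serpinb8 lower. At 2-fold it was 0. Of the plasminogen activation list, 0 genes passed as reported, 2 with processed signals, 2 with the deposited values and 1, F10, with the trend. In the same order of settings, 0.328%, 0.965%, 0.95% and 0.776% of all genes passed.

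Over all counts and settings 12 moved and 70 stayed within 1.5 times. Most of the 70 were counts of list genes passing that were 0 and stayed at 0. Serpinb5, the gene that passed, was higher in the labelled knockout in every setting. Several settings, among them Aquantile, the trend and unpaired channels, left its mean at 1.16 by construction and could not change its sign. The median of the Serpin genes was 0.13 with processed signals, 0.12 with median centring and 0.04 without the filter. With offset 0 the mean of Serpinb5 was 1.54, and without background subtraction 1.30. No paired analysis was possible because the 2 arrays form 1 group, and each ratio already pairs a knockout with a control.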
